A study of Mus musculus with 24 samples.

Results

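The genes described here are the CDK inhibitors and the D-type cyclins, 9 of the 55401 genes in each of the 3 deposited count tables. They were taken by symbol, and all 9 were found in every table: the Cip/Kip inhibitors Cdkn1a, Cdkn1b and Cdkn1c, the INK4 locus and family genes Cdkn2a, Cdkn2b and Cdkn2c, and the cyclins Ccnd1, Ccnd2 and Ccnd3. The filter on low counts left 8 of them for KPsh cells, 7 for KPnull cells and 8 for the Pcyt2-edited cells. Cdkn1c passed in none of the 3, and Cdkn2b did not pass in the KPnull table.

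D-type cyclins bind the kinases CDK4 and CDK6, and the complexes phosphorylate the retinoblastoma protein, which releases E2F factors and lets cells pass from G1 into S phase. INK4 proteins block CDK4 and CDK6 themselves, while Cip/Kip proteins bind complexes of cyclins and CDKs and inhibit those with CDK2 most strongly. Cdkn1a, which encodes p21, is the best known transcriptional target of p53 in the cell cycle, and the Cdkn2a locus is deleted or silenced in most human pancreatic ductal adenocarcinomas (PDAC).

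Messenger RNA was sequenced from 24 libraries of cultured mouse PDAC cell lines in 11 groups. KPsh cells express a hairpin against Trp53 only on doxycycline, so that p53 is restored off-dox (n = 3) and silenced on-dox (n = 3, 1 µg/ml), here for 10 days. KPnull cells (n = 2 in each group), in which p53 is absent, carried a doxycycline-inducible construct for wild-type p53 (p53WT), for p53 mutated in the first transactivation domain (p53TAD1m), in the second (p53TAD2m) or in both (p53TAD12m), or an empty vector, and all received doxycycline at 1 µg/ml for 48 hours before harvest, so that p53 in them came from a transgene. A further set of KPsh cells (n = 2 in each group) carried a guide that knocks out Pcyt2 (sgPcyt2), an enzyme of phosphatidylethanolamine synthesis, alone or together with a Pcyt2 cDNA, and was kept off-dox or on-dox for 6 days. Off-dox and on-dox groups differ in doxycycline itself as well as in p53, and the effects of the drug and of p53 cannot be told apart in them. The labels give neither the driver mutations of the lines nor whether a line is 1 clone or whether the libraries of a group came from separate cultures, so the spread that the p-values rest on is that of these libraries and may be technical.

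Library totals were 9393966 to 12983420 counts for KPsh cells, 13657592 to 19431250 for KPnull cells and 13801514 to 17127760 for the Pcyt2-edited cells. Levels are read counts scaled to a common library size with TMM factors, as CPM, and levels of different genes are compared only as CPM per kilobase (kb) of counted exons. Trp53 had 258 ± 5.85 CPM off-dox and 21.1 ± 0.721 CPM on-dox in KPsh cells (SD, n = 3 each). In KPnull cells it lay between 527 and 668 CPM in the means of the 4 groups with a p53 construct, against 5.33 ± 1.12 CPM with the vector (SD, n = 2). Summed CPM of 8 ductal or epithelial markers was 5006 to 13002 in all libraries, higher in every library with p53 restored in KPsh cells, or with p53WT or p53TAD2m, than in its on-dox or vector libraries. Of these 8, 1 stayed under 1 CPM in all 24 libraries, and up to 3 did so within a group, so the sum does not speak for each marker. Of the other marker genes, 6 of 7 fibroblast, 5 of 7 immune, 3 of 4 endothelial, and 6 of 7 acinar and endocrine markers stayed under 1 CPM in all 24 libraries. Each of these 4 lists summed to no more than 31.05 CPM in any library, and Col1a2, Dcn, Lum, Adgre1, Cpa1, Ptf1a, Ins1, Ins2 and Gcg had no count in any. The part of the epithelial markers' shift in the results below was not tested. All tests ran within a table, with edgeR's quasi-likelihood test and Benjamini-Hochberg adjustment over all genes tested, and "called" means an adjusted p under 0.05.

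Sequences are shown for Cdkn1a, the member with the largest rise with p53WT and in KPsh cells off-dox, and for Cdkn2a, whose 2 transcripts encode different proteins from a shared exon. RefSeq (GRCm38.p6) lists 2 start sites for Cdkn1a on the plus strand of chromosome 17. The counted transcript, Cdkn1a-205 of GENCODE (chr17:29093781-29100727), begins 2802 bases after the upstream start site, beside the downstream one. The 250 bases before each start site follow, with matches to the p53 decamer motif in capitals in the upstream window and matches to the GC box GGGCGG (both strands) in capitals in the downstream window.
Cdkn1a upstream start, chr17:29090729-29090978: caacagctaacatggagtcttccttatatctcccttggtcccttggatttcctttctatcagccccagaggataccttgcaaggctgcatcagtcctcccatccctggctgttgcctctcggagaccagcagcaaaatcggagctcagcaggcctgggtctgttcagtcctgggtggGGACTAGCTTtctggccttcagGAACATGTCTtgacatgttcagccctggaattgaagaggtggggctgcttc
Cdkn1a downstream start, chr17:29093519-29093768: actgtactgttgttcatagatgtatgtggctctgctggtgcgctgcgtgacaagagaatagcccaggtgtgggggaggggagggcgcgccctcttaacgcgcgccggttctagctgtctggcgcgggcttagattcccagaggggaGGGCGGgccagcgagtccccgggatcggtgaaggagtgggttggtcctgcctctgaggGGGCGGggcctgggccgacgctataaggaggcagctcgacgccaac
The upstream window holds 2 matches to the p53 motif, GGACTAGCTT and GAACATGTCT, which begin 73 and 51 bases before that start site. The motif is its own reverse complement, so 1 search covers both strands, and overlapping matches were allowed. At least 1 match stands in 7.13% and at least 2 stand in 0.259% of the 32851 RefSeq promoter windows of the same length. The downstream window holds no match to it and 2 GC boxes, a motif found in 32.7% of all windows. Promoter windows were available for 6 of the 9 members (Cdkn1a, Cdkn1b, Cdkn2a, Cdkn2b, Cdkn2c and Ccnd3), 10 windows in all, and the upstream one of Cdkn1a was the only 1 of these 10 with a match to the p53 motif. A match is a description of these letters and not a measured binding site.

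Cdkn2a has a separate first exon for each of its proteins, p19Arf, which stabilises p53 by binding Mdm2, and p16Ink4a, which inhibits CDK4 and CDK6. The tables count 1 transcript per gene, and for Cdkn2a that is Cdkn2a-202 (chr4:89274541-89294653, minus strand), the transcript with the first exon of p19Arf. The transcripts share 575 exon bases, with exon 2 read in another frame, while 320 bases of Cdkn2a-202 and 277 bases of Cdkn2a-201, the p16Ink4a transcript, are their own. A Cdkn2a count is therefore the sum of reads on the p19Arf exon and on exons that both transcripts use. The junctions of the first exon (lower case) with exon 2 (capitals) read as follows, 5′ to 3′ on the transcript.
Cdkn2a-202, p19Arf: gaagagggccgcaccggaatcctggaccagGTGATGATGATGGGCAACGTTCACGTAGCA
Cdkn2a-201, p16Ink4a: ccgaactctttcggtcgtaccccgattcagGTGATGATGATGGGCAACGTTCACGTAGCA
The 250 bases before the RefSeq start site of the p19Arf transcript (chr4:89294620-89294869, minus strand) hold the E2F motif TTTCCCGC once, shown in capitals, a motif found on either strand in 0.895% of all windows, while the window of the p16Ink4a transcript (chr4:89282193-89282442) holds none.
Cdkn2a, p19Arf start: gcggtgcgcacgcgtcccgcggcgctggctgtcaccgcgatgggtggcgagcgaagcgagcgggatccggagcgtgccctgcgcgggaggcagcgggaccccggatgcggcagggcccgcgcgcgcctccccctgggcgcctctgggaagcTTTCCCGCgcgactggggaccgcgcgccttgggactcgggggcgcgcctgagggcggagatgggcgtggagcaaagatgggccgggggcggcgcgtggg

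Cdkn1a rose in each comparison that set p53 restored, or p53WT or p53TAD2m, against its control, and it was the member with the largest rise in each except 1, the sgPcyt2 cells, where Ccnd2 rose more. In KPsh cells it had 504, 454 and 510 CPM off-dox, against 53.2, 53.4 and 50.6 CPM on-dox. The groups stood far apart, 9.34-fold (log2 change 3.22 ± 0.062 SE, edgeR adjusted p = 1.46e-20). In KPnull cells it had 401 and 358 CPM with p53WT and 299 and 290 CPM with p53TAD2m, against 38.7 and 47.5 CPM with the vector. The rises over the vector were 8.85-fold (log2 3.15 ± 0.081, edgeR adjusted p = 1.52e-13) and 6.87-fold (log2 2.78 ± 0.082, edgeR adjusted p = 6.93e-13).

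Mutation of the first transactivation domain left little of this rise. Cdkn1a had 54.4 and 52.5 CPM with p53TAD1m, above both vector libraries (log2 0.32 ± 0.087, edgeR adjusted p = 0.00929), but the call was lost without vector replicate 1 (log2 0.16, edgeR adjusted p = 0.199) or without p53TAD1m replicate 1 (edgeR adjusted p = 0.0875). It was lower than with p53WT (log2 -2.83, edgeR adjusted p = 1.59e-12) and than with p53TAD2m (log2 -2.46, edgeR adjusted p = 6.71e-12). With p53TAD12m it had 32.6 CPM in both libraries, below both vector libraries (log2 -0.39 ± 0.090, edgeR adjusted p = 0.0197), and this call was lost without either p53TAD12m library or vector replicate 2 (edgeR adjusted p = 0.0899 to 0.203) and with only these 4 libraries in the fit (0.154). All comparisons with the vector share its 2 libraries. The order of the group means was p53WT, p53TAD2m, p53TAD1m, vector, p53TAD12m, and no neighbours in that order overlapped.

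Between p53TAD2m and p53WT the difference in Cdkn1a lay at the threshold. It was -0.37 ± 0.074 on the log2 scale with an edgeR adjusted p of 0.054, and it passed with DESeq2 size factors (0.0382), in DESeq2 (0.00832), without the filter on low counts (1.86e-05), with only these 4 libraries in the fit (0.000315) and with the counts of the overlapping gene 1700023B13Rik taken off (0.0431). Without any 1 of the 4 libraries it did not pass (0.0633 to 0.862). Trp53 itself had 527 ± 3.80 CPM with p53TAD2m and 668 ± 26.4 CPM with p53WT (SD, n = 2 each), and its part in the difference was not tested.

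**Figure D1:**
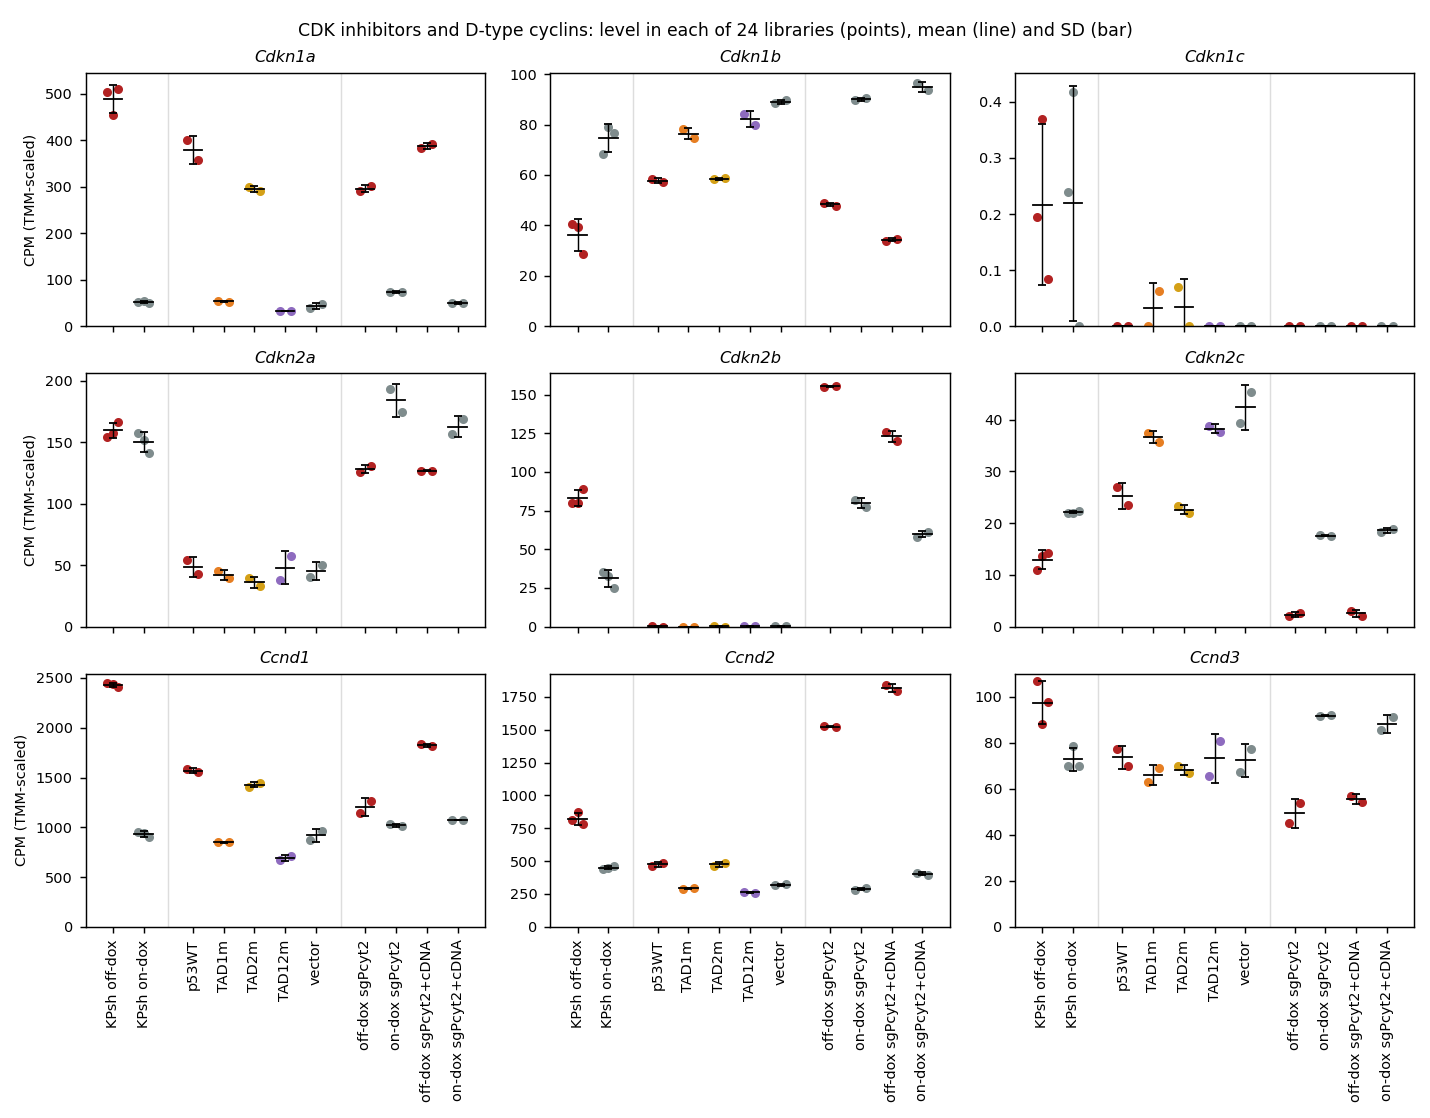
CPM of each of the 9 genes in each of the 24 libraries (points), with the mean (line) and SD (bar) of each group; the y axes are linear and differ between genes, and the grey lines part the 3 tables. Cdkn1a stands at 290 to 510 CPM in all libraries with restored p53, p53WT or p53TAD2m and at 32.6 to 74.6 CPM in all others.

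Cdkn1b, which encodes p27, fell in the same comparisons. It had 40.5, 39.2 and 28.7 CPM off-dox, against 68.4, 78.9 and 76.8 CPM on-dox in KPsh cells, with no overlap (log2 -1.05 ± 0.11, edgeR adjusted p = 2.76e-07). With p53WT it had 58.4 and 57.1 CPM and with p53TAD2m 58.3 and 58.7 CPM, against 88.5 and 89.6 CPM with the vector. Both falls passed the test (log2 -0.62 ± 0.062 and -0.61 ± 0.062, edgeR adjusted p = 3.46e-07 and 5.36e-07), and the p53WT and p53TAD2m libraries overlapped each other. With p53TAD1m the fall was smaller, to 78.0 and 74.8 CPM (log2 -0.22 ± 0.060, edgeR adjusted p = 0.00909, and 0.0865 without p53TAD1m replicate 2). With p53TAD12m Cdkn1b had 84.3 and 79.8 CPM, and its difference from the vector did not pass (log2 -0.12 ± 0.060, edgeR adjusted p = 0.445).

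Summed per exon length, the Cip/Kip genes reached 244 ± 14.2 CPM per kb off-dox and 41.8 ± 1.35 CPM per kb on-dox in KPsh cells (SD, n = 3 each). Cdkn1a made up 96.7 ± 0.709% of that sum off-dox and 60.5 ± 2.05% on-dox. In KPnull cells its share was 93.5 ± 0.393% with p53WT, 60.5 ± 0.0782% with p53TAD1m, 91.7 ± 0.185% with p53TAD2m, 46.6 ± 0.951% with p53TAD12m and 51.4 ± 3.41% with the vector (SD, n = 2 each). Cdkn1b was thus the more abundant of the pair per length with p53TAD12m alone among the group means. Cdkn1c, which encodes p57 and is an imprinted gene, had 14 counts over the 6 KPsh libraries, 2 over the 10 KPnull libraries and none in the 8 Pcyt2-edited libraries, and no more than 0.418 CPM in any library, too few for a comparison. A count of 0 in a library of the Pcyt2 table allows up to 0.175 to 0.217 CPM (3 counts), a limit that covers counting error only.

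Of the INK4 genes, Cdkn2b and Cdkn2c moved in opposite directions and Cdkn2a did not pass the test in KPsh or KPnull cells. Cdkn2b encodes p15, an inhibitor of CDK4 and CDK6 that transforming growth factor beta induces. It had 79.8, 79.9 and 88.8 CPM off-dox, against 35.3, 32.8 and 25.1 CPM on-dox in KPsh cells (2.68-fold, log2 1.42 ± 0.098, edgeR adjusted p = 6e-10). In KPnull cells it was all but absent, with 6 counts over the 10 libraries and none in 4 of them, at most 0.0693 CPM, where a count of 0 allows up to 0.154 to 0.220 CPM. Its neighbour Cdkn2a, 11645 bases away on the same strand, had 32.9 to 57.6 CPM in these same KPnull libraries. KPnull and KPsh levels come from separate tables, so this difference between the lines was not tested.

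Cdkn2a had 155, 158 and 167 CPM off-dox, against 157, 152 and 141 CPM on-dox in KPsh cells, and the groups overlapped (log2 0.090 ± 0.058, edgeR adjusted p = 0.18). In KPnull cells no form of p53 moved it past the test against the vector (log2 changes -0.32 to 0.096, edgeR adjusted p = 0.337 to 0.956), and with SE of 0.233 to 0.245 these libraries could not resolve small changes. Its 2 libraries differed most with p53TAD12m, at 38.3 and 57.6 CPM.

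Cdkn2c encodes p18, the INK4 inhibitor that is itself an E2F target. It had 10.9, 13.6 and 14.3 CPM off-dox, against 22.0, 21.9 and 22.3 CPM on-dox in KPsh cells (log2 -0.77 ± 0.11, edgeR adjusted p = 2.54e-06). It fell to 27.05 and 23.5 CPM with p53WT and to 23.2 and 22.0 CPM with p53TAD2m, against 39.3 and 45.4 CPM with the vector (log2 -0.74 ± 0.092 and -0.90 ± 0.095, edgeR adjusted p = 4.47e-06 and 6.5e-07). With p53TAD1m it had 37.5 and 35.8 CPM and with p53TAD12m 38.9 and 37.7 CPM, below both vector libraries, but neither difference passed (log2 -0.21 ± 0.088 and -0.14 ± 0.087, edgeR adjusted p = 0.0787 and 0.569).

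**Figure D2:**
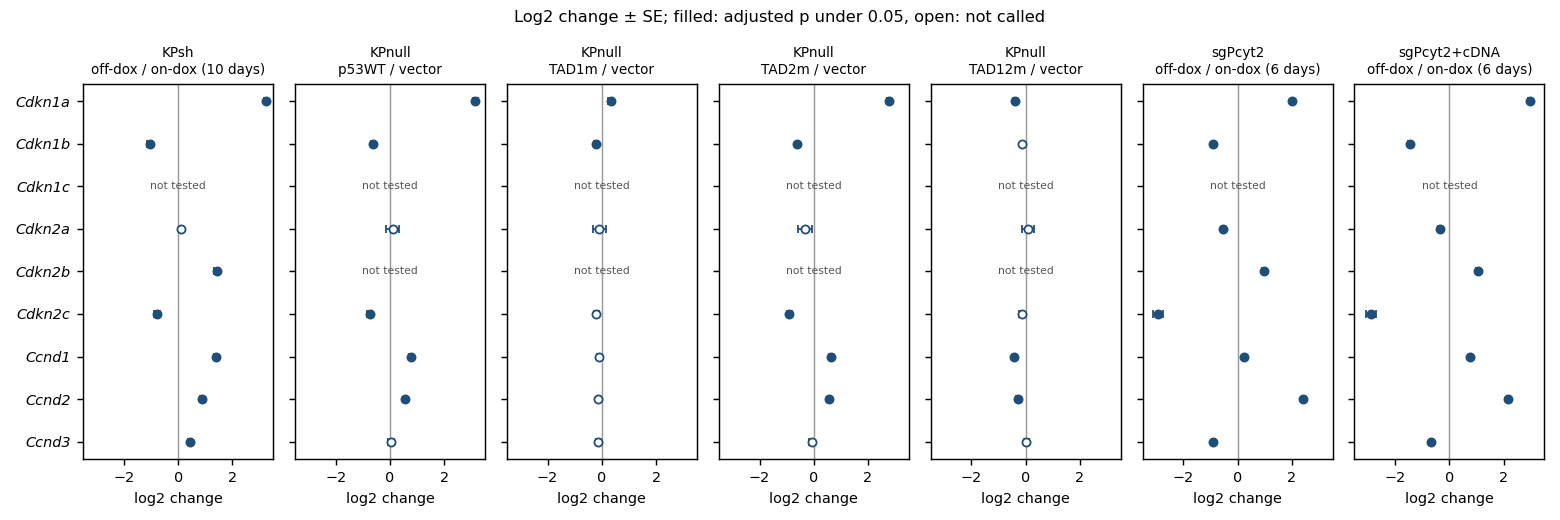
Log2 change (x axis) with its standard error for each gene (rows) in 7 comparisons (panels), with filled points at an edgeR adjusted p under 0.05 and open points above it. Cdkn1a, Ccnd1 and Ccnd2 lie right of 0 and Cdkn1b and Cdkn2c left of 0 in each of the 5 comparisons with restored p53, p53WT or p53TAD2m, while Ccnd3 lies right of 0 at 0.42 in KPsh cells and, from counts that include reads of the overlapping Bysl, left of 0 at -0.90 and -0.67 in the Pcyt2-edited sets.

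The D-type cyclins Ccnd1 and Ccnd2 rose together with Cdkn1a. Ccnd1, the cyclin that growth factor and RAS signals induce, had 2447, 2440 and 2408 CPM off-dox, against 951, 942 and 902 CPM on-dox in KPsh cells (2.61-fold, log2 1.38 ± 0.051, edgeR adjusted p = 7.09e-16). In KPnull cells it had 1587 and 1551 CPM with p53WT and 1409 and 1447 CPM with p53TAD2m, against 873 and 965 CPM with the vector. Those rises were 1.71-fold (log2 0.77 ± 0.057, edgeR adjusted p = 1.21e-08) and 1.55-fold (log2 0.64 ± 0.058, edgeR adjusted p = 1.25e-07). With p53TAD1m it had 855 and 847 CPM, a difference from the vector that did not pass (log2 -0.11 ± 0.058, edgeR adjusted p = 0.149), and with p53TAD12m it fell to 666 and 713 CPM (log2 -0.41 ± 0.058, edgeR adjusted p = 0.000413).

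Ccnd2, which binds the same kinases, rose in these comparisons too. Its level was 811, 870 and 784 CPM off-dox, against 438, 446 and 463 CPM on-dox in KPsh cells (1.83-fold, log2 0.87 ± 0.055, edgeR adjusted p = 6.8e-12). It had 462 and 486 CPM with p53WT and 461 and 489 CPM with p53TAD2m, groups that overlapped each other, against 316 and 327 CPM with the vector (log2 0.56 ± 0.054 for both, edgeR adjusted p = 2.45e-07 and 2.41e-07). It had 289 and 297 CPM with p53TAD1m, below both vector libraries without passing the test (log2 -0.13 ± 0.054, edgeR adjusted p = 0.0634). With p53TAD12m it fell to 265 and 259 CPM (log2 -0.30 ± 0.054, edgeR adjusted p = 0.00398), a call lost when only the p53TAD12m and vector libraries entered the fit (edgeR adjusted p = 0.0884).

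Ccnd3 had 107, 87.9 and 97.6 CPM off-dox, against 70.0, 78.5 and 69.9 CPM on-dox in KPsh cells (log2 0.42 ± 0.073, edgeR adjusted p = 2.84e-05). In KPnull cells it lay between 62.8 and 80.7 CPM in all 10 libraries, no neighbours in the order of the means were apart, and no form of p53 differed from the vector past the test (log2 changes -0.13 to 0.030, edgeR adjusted p = 0.333 to 0.98).

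The sum of the D-type cyclins per exon length was 831 ± 10.6 CPM per kb off-dox and 358 ± 6.42 CPM per kb on-dox in KPsh cells (SD, n = 3 each). Ccnd1 held 78.4 ± 0.343% of it off-dox and 69.8 ± 0.967% on-dox, and Ccnd3 held 5.95 ± 0.568% off-dox and 10.3 ± 0.579% on-dox. In KPnull cells the sum was 533 ± 6.71 CPM per kb with p53WT, 308 ± 1.58 with p53TAD1m, 493 ± 9.09 with p53TAD2m, 264 ± 13.6 with p53TAD12m and 334 ± 22.3 with the vector (SD, n = 2 each). Ccnd1 stayed the most abundant D-type cyclin per length in all 11 groups.

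**Figure D3:**
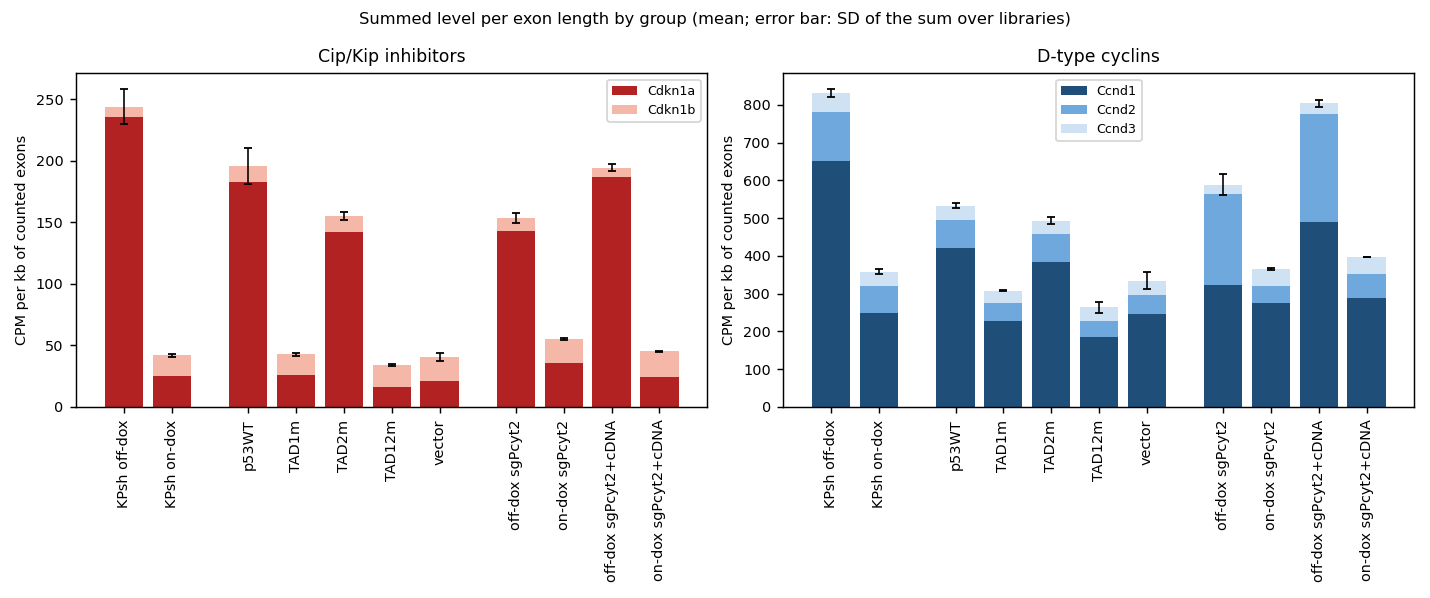
Mean CPM per kb of counted exons of the Cip/Kip inhibitors (left) and D-type cyclins (right) stacked by gene in each group, with the SD of the sum over libraries as error bars; Cdkn1c is too low to draw. The D-type cyclin bars are tallest in KPsh cells off-dox, at 831 CPM per kb, and Ccnd2 makes up its largest share in sgPcyt2 cells off-dox, at 41.0%.

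Counted over the members, 5 rose and 2 fell of the 8 tested in KPsh cells, where 64.8% of all genes tested were called, 33.1% higher and 31.7% lower. Against the vector, 5 of 7 were called with p53WT (background 50.6%), 2 of 7 with p53TAD1m (36.4%), 5 of 7 with p53TAD2m (49.1%) and 3 of 7, all lower, with p53TAD12m (3.85%, and 1.85% lower). With only the p53TAD12m and vector libraries in the fit, 1 of these 3 (Ccnd1) kept its call. The count with p53TAD1m lies below the share over all genes, and the counts in KPsh cells, with p53WT and with p53TAD2m are read against shares of around 50% or more, so they say less than the sizes of the single changes. Between the p53 forms, 5 of 7 members differed for p53TAD1m against p53WT (39.1%), for p53TAD12m against p53WT (51.2%), for p53TAD1m against p53TAD2m (35.5%) and for p53TAD2m against p53TAD12m (48.5%). None of 7 differed for p53TAD2m against p53WT (0.285%), where 2 had an unadjusted p under 0.05, Cdkn1a at 0.000172 and Ccnd1 at 0.0308, and DESeq2 called 1.

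Among the forms, p53TAD1m and p53TAD12m also differed. Cdkn1a was higher with p53TAD1m than with p53TAD12m by 0.71 ± 0.089 on the log2 scale (edgeR adjusted p = 1.74e-05), and Ccnd1 was higher by 0.30 ± 0.058 (edgeR adjusted p = 0.000753). Ccnd2 was higher by 0.16 ± 0.054 (edgeR adjusted p = 0.0322), a call lost without any 1 of the 4 libraries (edgeR adjusted p = 0.0515 to 0.211). These 3 of 7 members were higher, beside 16.8% of all genes tested that were called higher. Against p53WT, p53TAD12m had lower Cdkn1a (log2 -3.54 ± 0.083), Ccnd1 (log2 -1.19 ± 0.058) and Ccnd2 (log2 -0.86 ± 0.054) and higher Cdkn1b (log2 0.51 ± 0.062) and Cdkn2c (log2 0.60 ± 0.092).

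In the Pcyt2-edited cells all 8 tested members were called off-dox against on-dox in both sets, 4 higher and 4 lower, beside 76.3% of all genes tested with sgPcyt2 (39.2% higher and 37.1% lower) and 73.5% with sgPcyt2+Pcyt2-cDNA (37.3% higher and 36.3% lower). Pcyt2 had 19.5 ± 2.55 CPM off-dox and 28.6 ± 0.101 CPM on-dox with sgPcyt2 alone (SD, n = 2 each), and 2193 and 2202 CPM off-dox and 2588 and 2636 CPM on-dox with the cDNA. Unedited KPsh cells had 86.3 ± 3.46 CPM of Pcyt2 off-dox and 109 ± 4.51 CPM on-dox (SD, n = 3 each). The cDNA cells thus stood far above the unedited level, a difference between separately normalised tables that was not tested. Trp53 had 41.9 ± 0.317 CPM off-dox and 20.9 ± 2.49 CPM on-dox with sgPcyt2, and 92.0 ± 7.37 CPM off-dox and 19.8 ± 0.646 CPM on-dox with the cDNA (SD, n = 2 each). In KPsh cells without the guide it had the 258 CPM off-dox given above, but the tables were normalised separately and the times differ (6 and 10 days), so this was not tested. Off-dox, Trp53 was thus lower with sgPcyt2 than with the cDNA, and its part in the differences below was not tested.

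Cdkn1a had 291 and 302 CPM off-dox, against 72.7 and 74.6 CPM on-dox with sgPcyt2, and 383 and 392 CPM off-dox, against 49.2 and 50.8 CPM on-dox with the cDNA. The groups did not overlap, and sgPcyt2 cells had more Cdkn1a on-dox and less off-dox than cells with the cDNA. The off-dox rise was 4.03-fold with sgPcyt2 (log2 2.01 ± 0.045) and 7.74-fold with the cDNA (log2 2.95 ± 0.048), and the difference of the effects was -0.94 ± 0.066 on the log2 scale (edgeR adjusted p = 6.32e-16). Cdkn1b had 48.8 and 47.8 CPM off-dox, against 89.6 and 90.4 CPM on-dox with sgPcyt2, and 33.9 and 34.7 CPM off-dox, against 96.4 and 93.6 CPM on-dox with the cDNA. Its fall off-dox was smaller with sgPcyt2 (log2 -0.90 ± 0.058) than with the cDNA (log2 -1.47 ± 0.061), a difference of 0.57 ± 0.084 (edgeR adjusted p = 5.23e-07).

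For Ccnd1 the off-dox rise was smaller with sgPcyt2 than with the cDNA. It had 1141 and 1267 CPM off-dox, against 1032 and 1011 CPM on-dox with sgPcyt2 (log2 0.24 ± 0.041, edgeR adjusted p = 1.37e-06), and 1832 and 1812 CPM off-dox, against 1073 CPM in both on-dox libraries with the cDNA (log2 0.76 ± 0.041, edgeR adjusted p = 1.22e-21). The difference of the effects was -0.53 ± 0.058 (edgeR adjusted p = 4.93e-10). Ccnd2 rose far more than Ccnd1 in both sets, to 1524 CPM in both off-dox libraries, against 283 and 294 CPM on-dox with sgPcyt2 (log2 2.40 ± 0.039, edgeR adjusted p = 3.96e-41), and to 1838 and 1797 CPM off-dox, against 412 and 394 CPM on-dox with the cDNA (log2 2.17 ± 0.038, edgeR adjusted p = 9.65e-40). Its effects differed by 0.23 ± 0.055 (edgeR adjusted p = 0.00112), a call lost without off-dox replicate 2 of the cDNA set (edgeR adjusted p = 0.0514). Per exon length, Ccnd2 made up 41.0 ± 1.89% of the D-type cyclins off-dox and 12.5 ± 0.416% on-dox with sgPcyt2, and 35.8 ± 0.143% off-dox and 16.1 ± 0.512% on-dox with the cDNA (SD, n = 2 each).

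Ccnd3 fell in these cells. It had 44.9 and 53.8 CPM off-dox, against 91.5 and 91.9 CPM on-dox with sgPcyt2 (log2 -0.90 ± 0.064, edgeR adjusted p = 9.37e-17), and 57.0 and 54.0 CPM off-dox, against 85.4 and 91.0 CPM on-dox with the cDNA (log2 -0.67 ± 0.062, edgeR adjusted p = 4.17e-13). Bysl, a ribosome assembly gene that overlaps 18.2% of the counted Ccnd3 exon bases on the other strand, fell as well (log2 -1.47 ± 0.067, edgeR adjusted p = 7.72e-25), to 29.3 ± 0.206 CPM off-dox, against 80.9 ± 1.06 CPM on-dox with sgPcyt2, and reads of the 2 genes cannot be told apart in the overlap. The direction for Ccnd3 depends on how many of its reads are those of Bysl. Both checks of this were chosen after seeing the data. With the length share of Bysl counts that the overlap could hold taken off, 9.35% under even coverage, Ccnd3 still fell (log2 -0.85 with sgPcyt2 and -0.62 with the cDNA, edgeR adjusted p = 1.61e-15 and 1.16e-11). With all Bysl counts taken off, an upper limit, the sign turned (log2 0.89 with sgPcyt2, edgeR adjusted p = 0.0797, and log2 2.32 with the cDNA, edgeR adjusted p = 0.00622). The difference of the Ccnd3 effects did not pass (log2 -0.22 ± 0.089, edgeR adjusted p = 0.0604). It passed without the filter on low counts (0.0107), without sgPcyt2 off-dox replicate 2 (0.000779) and without cDNA off-dox replicate 2 (0.0344).

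Cdkn2c showed the deepest fall of the members. It had 2.00 and 2.61 CPM off-dox, against 17.6 and 17.5 CPM on-dox with sgPcyt2, and 3.01 and 2.05 CPM off-dox, against 18.3 and 18.9 CPM on-dox with the cDNA. It fell in both sets (log2 -2.93 ± 0.20 and -2.88 ± 0.18, edgeR adjusted p = 8.41e-21 and 2.73e-21), with 67 and 79 counts behind the off-dox groups. Cdkn2b rose, with 155 and 156 CPM off-dox, against 82.1 and 77.4 CPM on-dox with sgPcyt2 (log2 0.96 ± 0.050), and 126 and 120 CPM off-dox, against 58.2 and 61.2 CPM on-dox with the cDNA (log2 1.04 ± 0.053). Cdkn2a fell, with 126 and 130 CPM off-dox, against 194 and 175 CPM on-dox with sgPcyt2 (log2 -0.53 ± 0.048), and 126 and 127 CPM off-dox, against 157 and 169 CPM on-dox with the cDNA (log2 -0.36 ± 0.048). For none of these 3 did the 2 effects differ past the test (log2 differences -0.16 to -0.045, edgeR adjusted p = 0.0791 to 0.934), which does not show that they are alike. The Cdkn2a difference passed without the filter on low counts (log2 -0.21, edgeR adjusted p = 0.0145) and without replicate 2 of sgPcyt2 on-dox, sgPcyt2 off-dox or cDNA on-dox cells (0.00936 to 0.0455).

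Set directly against the cDNA cells, sgPcyt2 cells on-dox had higher Cdkn1a (log2 0.56 ± 0.054, edgeR adjusted p = 1.82e-11), Cdkn2b (log2 0.42 ± 0.055, edgeR adjusted p = 7.56e-08) and Cdkn2a (log2 0.18 ± 0.047, edgeR adjusted p = 0.00477) and lower Ccnd2 (log2 -0.48 ± 0.040, edgeR adjusted p = 1.91e-13). These were 4 of 8 tested members, beside 18.4% of all genes tested, and the Cdkn2a call was lost without sgPcyt2 on-dox replicate 1 (edgeR adjusted p = 0.25) or cDNA on-dox replicate 1 (edgeR adjusted p = 0.174). Off-dox, 6 of 8 were called beside 33.1% of all genes tested. Cdkn1b (log2 0.49 ± 0.066) and Cdkn2b (log2 0.34 ± 0.047) were higher, and Cdkn1a (log2 -0.39 ± 0.039), Ccnd1 (log2 -0.60 ± 0.041) and Ccnd2 (log2 -0.25 ± 0.037) were lower, with edgeR adjusted p-values of 3.46e-07 or less. Ccnd3 stood at the threshold (log2 -0.17 ± 0.068, edgeR adjusted p = 0.0481), and it lost the call in DESeq2 (0.183), with the length share of Bysl counts taken off (0.0608), with all of them taken off (0.86), with DESeq2 size factors (0.0504), with only these 4 libraries in the fit (0.0589), without sgPcyt2 off-dox replicate 1 (log2 -0.042, 0.757) and without cDNA off-dox replicate 1 (0.249) or 2 (0.05). The off-dox effects differed between the sets for 4 of 8 members, beside 25.2% of all genes tested.

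Counts over lists of other genes of the same machinery are read against the shares of all genes called. These were 64.8% in KPsh cells (31.7% lower), 76.3% with sgPcyt2 (37.1% lower) and 73.5% with the cDNA (36.3% lower). Against the vector they were 50.6% with p53WT, 49.1% with p53TAD2m, 36.4% with p53TAD1m and 3.85% with p53TAD12m (1.85% lower). The shares with p53WT, p53TAD2m and p53TAD1m are for calls in either direction, so counts of falls alone are not matched to them. A list of 9 held the kinases Cdk4, Cdk6, Cdk2 and Cdk1, the cyclins Ccne1, Ccne2, Ccna2 and Ccnb1 and the INK4 inhibitor Cdkn2d, and all 9 were tested in every table. In KPsh cells 5 of them fell and 4 were not called (median log2 change -0.30, against 0.0072 over all genes tested). That is under the 64.8% of all genes called in either direction and over the 31.7% called lower. Against the vector, 8 fell with p53WT (median -0.99, all genes -0.0065), 8 with p53TAD2m (median -0.92, all genes -0.010) and 6 with p53TAD1m (median -0.25, all genes -0.014), and the others were not called. With p53TAD12m edgeR called 0 of 9 (median -0.045, all genes -0.0016), 1 had an unadjusted p under 0.05 and DESeq2 called 0. With 3.85% of all genes called there, a count of 0 in this list or in those below says little about its genes. In KPsh cells Ccna2, the S-phase cyclin, fell by 1.01 ± 0.055 on the log2 scale and Ccnb1, the mitotic cyclin, by 0.87 ± 0.071 (log2 -1.01 and -0.87, edgeR adjusted p = 5.7e-13 and 1.1e-09). With p53WT, Cdk1 and Ccna2 changed by -1.14 ± 0.063 and -1.13 ± 0.059 (edgeR adjusted p = 3.65e-10 and 1.83e-10). In both Pcyt2-edited sets 8 of the 9 fell and 1 rose, with medians of -2.72 with sgPcyt2 (all genes 0.024) and -2.70 with the cDNA (all genes 0.020). Ccnb1 fell by 4.36 ± 0.094 on the log2 scale with sgPcyt2 and by 3.39 ± 0.069 with the cDNA (edgeR adjusted p = 6.8e-40 and 1.83e-38).

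The list of 12 CDK activators and of factors that turn over inhibitors and D-type cyclins held 7 that fell and 1 that rose in KPsh cells (median log2 change -0.35), 6 and 1 with p53WT (median -0.44), 7 and 1 with p53TAD2m (median -0.43), and 5 and 1 with p53TAD1m (median -0.13), beside the medians over all genes given above. In the Pcyt2-edited cells off-dox 7 fell and 2 rose with sgPcyt2 (median -1.065), and 7 fell and 1 rose with the cDNA (median -0.97). Calls in either direction were near or under the shares over all genes in KPsh cells (64.8%), with sgPcyt2 (76.3%) and with the cDNA (73.5%). The falls alone stand beside 31.7%, 37.1% and 36.3% of all genes called lower. With p53TAD12m neither edgeR nor DESeq2 called any of the 12, and 0 had an unadjusted p under 0.05. Skp2, the F-box protein that marks p27 for degradation, showed the largest change in KPsh cells (log2 -1.30 ± 0.073, edgeR adjusted p = 8.75e-13), with p53WT (log2 -1.08 ± 0.078, edgeR adjusted p = 7.55e-09) and with sgPcyt2 off-dox (log2 -2.93 ± 0.090, edgeR adjusted p = 2.03e-33). Of 17 pocket protein, E2F and DREAM genes, 10 fell and 3 rose in KPsh cells (median -0.29), 13 fell and 1 rose with p53WT (median -0.64) and with p53TAD2m (median -0.52), 5 fell and 3 rose with p53TAD1m (median -0.074), and edgeR and DESeq2 called 0 with p53TAD12m (median 1e-04), where 4 had an unadjusted p under 0.05. In both Pcyt2-edited sets edgeR called all 17, 14 lower and 3 higher, and DESeq2 called 17 with sgPcyt2 and 15 with the cDNA. E2f7 and E2f8, repressor E2Fs that are themselves E2F targets, were among the largest changes with sgPcyt2 (log2 -3.98 ± 0.13 and -3.43 ± 0.13). With p53TAD1m, Rb1, the retinoblastoma gene, rose (log2 0.52 ± 0.079, edgeR adjusted p = 7.52e-05).

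**Figure D4:**
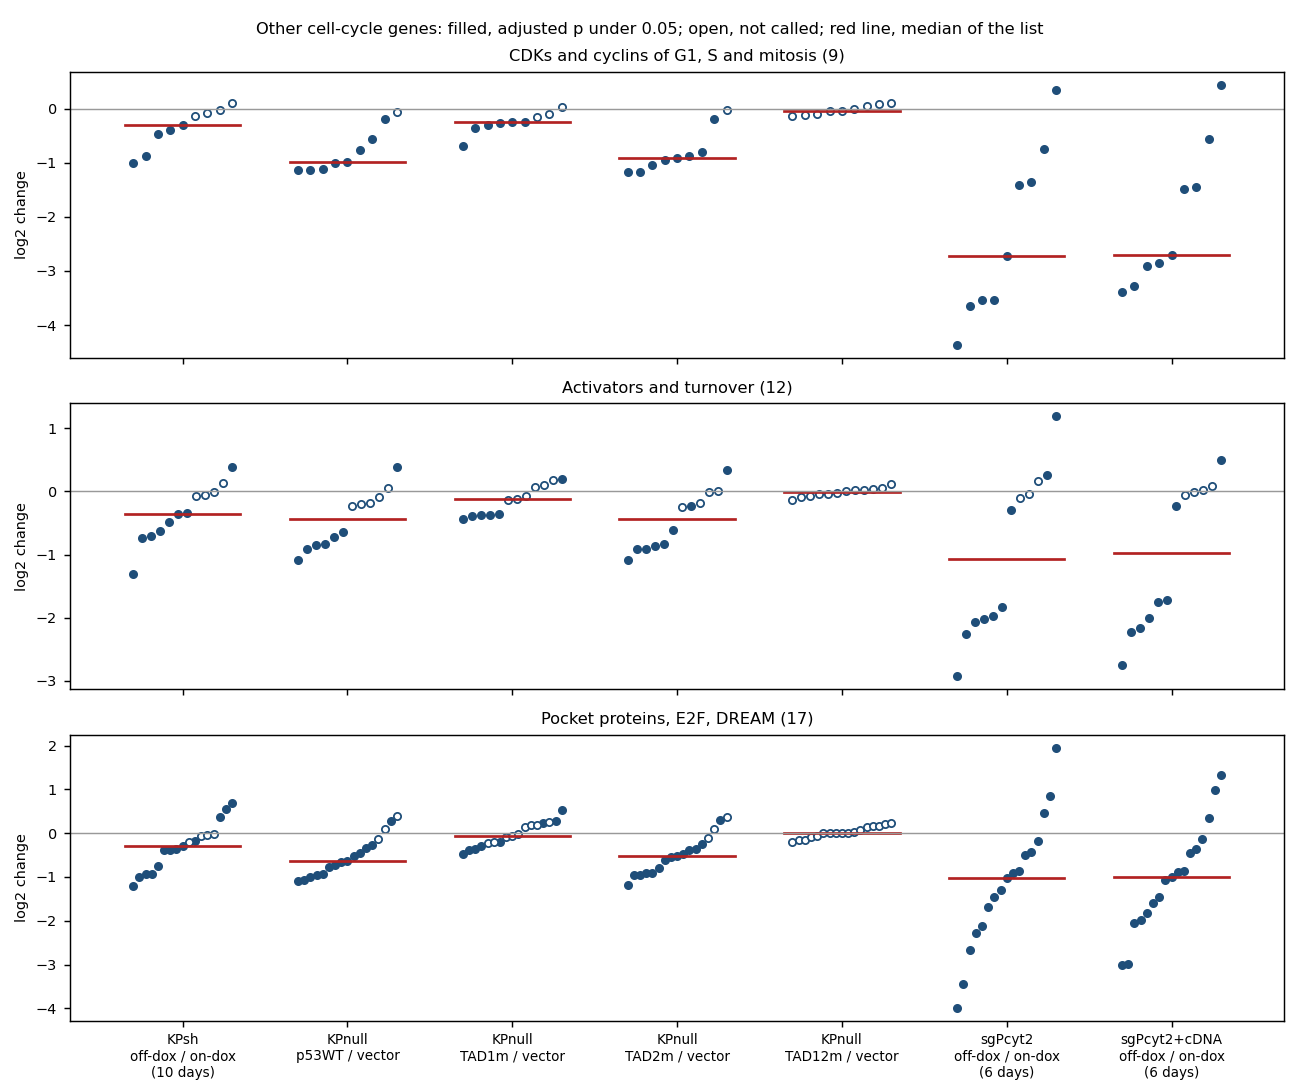
Log2 change (y axis, ranges differ) of every gene of 3 lists of other cell-cycle genes (panels) in 7 comparisons (columns); filled points are called and red lines are list medians. The medians lie near 0 with p53TAD12m and reach -2.72 for the CDKs and cyclins in sgPcyt2 cells off-dox.

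The genes most like each member were sought by Pearson's r of log2(CPM + 1) group means, centred within each table, over the 11 groups and among 4489 genes whose means spanned at least 1 on that scale. The groups share libraries' scaling and controls, so r is a description. For Cdkn1a the nearest were 1700023B13Rik (r = 0.996), Rras (0.992) and Il10rb (0.990), and for Ccnd1 they were LTO1 (0.996), Gm42836 (0.974) and Cdhr2 (0.973). Both first-ranked genes overlap the member on the opposite strand: 1700023B13Rik covers 12.5% of the counted exon bases of Cdkn1a, and LTO1 covers 29.4% of those of Ccnd1. The tables count both strands together, so these reads cannot be told apart. With all counts of the overlapping gene taken off, which is an upper limit on what it could add, the Cdkn1a and Ccnd1 log2 changes in KPsh cells were 3.26 and 1.24, and Ccnd2, 5.88% of which is covered by Gm43126, had 0.81. For Ccnd3 this was possible in the Pcyt2-edited cells alone, where it turned the sign as given above, since in the other tables some libraries have more counts of Bysl than of Ccnd3. For Cdkn1b the nearest were Nelfa, Slc16a6 and Jade1 (r = 0.996 to 0.992). For Cdkn2c they were Rmi2, Mcm5 and Gm41396 (0.9987 to 0.9985), for Ccnd2 Hlcs, Lgals3bp and Slc39a11 (0.994 to 0.989), for Ccnd3 Timp1, Mtmr10 and Tnnt2 (0.971 to 0.966) and for Cdkn2a Gm48597, Eldr and Stac (0.9145 to 0.872).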

How the data were processed

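RNA from 24 libraries of cultured mouse PDAC cells was sequenced with a stranded mRNA kit, per the labels' protocols. The deposited values are estimated counts per gene in steps of 0.5, made by the authors with STAR 2.6.1c and HOMER on mm10, per the submitters' processing notes. Per the file headers, HOMER counted exons of 1 GENCODE transcript per gene and both strands together, so reads of overlapping genes cannot be told apart. Counts were rounded to whole numbers (by at most 0.0533% of a library's total).

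Each of the 3 tables was fitted alone, with all its groups sharing 1 estimate of the spread: edgeR 4.0.16 (R 4.3.3) with TMM scaling (factors 0.979 to 1.021), filterByExpr, the robust quasi-likelihood test and Benjamini-Hochberg adjustment over the 13990 (KPsh), 15075 (KPnull) and 14916 (Pcyt2) genes tested, with calls at an adjusted p under 0.05. The fits were tested on simulated data. DESeq2 1.42.0, DESeq2 size factors, no filter, a replicate block, only the groups compared and leaving out each library were the alternatives, with counts of overlapping genes taken off and a crossed block added after seeing the data. The members and lists were chosen with earlier results of these data known. All members are named, and of each list up to 4 called genes with the largest absolute log2 change at a mean of at least 5 CPM could be named, of which the text gives some. Library columns carry no accession, and some were matched to their group by elimination among the labels.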

Additional observations from a re-analysis of the deposited data

Results flagged for a closer look

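The off-dox effect differed between sgPcyt2 cells and sgPcyt2+Pcyt2-cDNA cells for 4 of 8 tested members, beside 25.2% of all genes tested. The test was of the difference itself (edgeR's quasi-likelihood test, Benjamini-Hochberg adjustment, n = 2 in each of the 4 groups). The difference, sgPcyt2 minus cDNA, was -0.94 on the log2 scale for Cdkn1a (edgeR adjusted p = 6.32e-16), 0.57 for Cdkn1b (edgeR adjusted p = 5.23e-07), -0.53 for Ccnd1 (edgeR adjusted p = 4.93e-10) and 0.23 for Ccnd2 (edgeR adjusted p = 0.00112). As given above, the Ccnd2 call was lost without off-dox replicate 2 of the cDNA set. Trp53 stood at 41.9 ± 0.317 CPM off-dox with sgPcyt2 and 92.0 ± 7.37 CPM off-dox with the cDNA (SD, n = 2 each), and its part in these differences was not tested.

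Ccnd3 had opposite off-dox effects in the Pcyt2-edited sets and in KPsh cells without the guide. Its log2 change was -0.90 with sgPcyt2 and -0.67 with sgPcyt2+Pcyt2-cDNA after 6 days, against 0.42 in KPsh cells without the guide after 10 days. Every off-dox library lay below every on-dox library in the edited sets, and every off-dox library lay above every on-dox library in the unedited cells. Bysl, on the other strand, shares 18.2% of the counted Ccnd3 exon bases, and the 2 genes' reads cannot be told apart there. With all Bysl counts taken off, an upper limit, the change in the edited sets turned to 0.89 with sgPcyt2 (edgeR adjusted p = 0.0797) and 2.32 with the cDNA (edgeR adjusted p = 0.00622), while with the length share of 9.35% taken off it was -0.85 and -0.62, and 0.53 in KPsh cells. The values come from separate tables at different times, and the difference was not tested.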

How the results depend on the processing

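With all counts of the overlapping Bysl taken off, an upper limit chosen after seeing the data and run for Ccnd3 in the Pcyt2-edited cells alone, the off-dox fall of Ccnd3 turned to a log2 change of 0.89 with sgPcyt2 and 2.32 with the cDNA. No other result that was run reversed. Of the log2 changes recomputed for single members, 1193 kept their side of the threshold, 19 passed only under the alternative, 25 lost the call and 2 reversed. Counts of members called stayed within 1.5 times in 176 recomputations and moved in 8, and counts of all genes called in 170 and 14. For p53TAD2m against p53WT, 1 member (Cdkn1a) in place of 0 was called with DESeq2 size factors, in DESeq2, without the filter, with only the groups compared and with all of the overlapping gene's counts taken off. All genes called there were 107 without the filter, 99 with only the groups compared and 13 to 23 without 1 library, in place of 43. For p53TAD12m against vector, only the groups compared gave 1 member (Ccnd1) in place of 3 and 160 genes in place of 580, and leaving out 1 library gave 352 to 504 genes, with 352 without vector replicate 1 and 382 without vector replicate 2. Leaving out 1 library gave 1 to 3 members in place of 2 for p53TAD1m against vector (1 without either p53TAD1m library), 2760 to 4750 genes in place of 4678 for p53TAD1m against p53TAD12m (2760 without p53TAD1m replicate 2), and 1680 to 2141 in place of 2746 for sgPcyt2 against cDNA on-dox (1680 without cDNA replicate 2). DESeq2 called 1572 genes there, 3116 in place of 4944 off-dox and 2426 in place of 3759 for the difference of the effects. The causes were not tested. Where leaving out a library left 1 in a group, that library is assumed to vary like the other groups.

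Replicate numbers do not pair the libraries throughout: deviations of same-numbered libraries correlated at -0.126 to -0.1 in KPsh cells, -0.204 to 0.354 in KPnull cells and -0.07 to 0.011 in the Pcyt2 table. The 0.354 was between p53TAD12m and vector, where same-numbered libraries did deviate together. With 2 libraries in a group, a negative r means that unlike numbers deviate together, as for p53WT with p53TAD12m (-0.204) and with vector (-0.173). In KPsh cells no library correlated best with its own number. The replicate block moved no count of calls by over 1.5 times. It ended 1 call of a member, Ccnd3 for sgPcyt2 against cDNA off-dox (log2 -0.17, edgeR adjusted p = 0.0556). A crossed pairing in KPnull cells, chosen after seeing the data, called 8511 genes for p53WT and 8256 for p53TAD2m against vector, 8567 for p53TAD12m against p53WT and 8195 for p53TAD2m against p53TAD12m, with 5 members in each.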

Other observations

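In KPnull cells some of the genes listed around Cdkn2b on chromosome 4 were counted in every library, while Cdkn2b was at 0 or 1 count per library. All genes listed here were chosen after their values were seen. Their CPM is not scaled by exon length, so the values do not rank the genes by level. Mtap had 106 to 144 CPM over the 10 libraries, Klhl9 had 49.7 to 60.5 CPM and Wincr1 had 13.8 to 16.1 CPM. Dmrta1 had 0.0749 to 0.949 CPM. Gm12608, Gm12609 and Gm12610 had 0 counts in all 10 KPnull libraries, where a count of 0 allows up to 0.154 to 0.220 CPM, and in KPsh cells they had 6, 9 and 17 counts over the 3 off-dox libraries and 10, 18 and 30 over the 3 on-dox libraries.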
